A study of Homo sapiens with 6 samples.

Results

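In 143B cells, a human osteosarcoma line, 36 h with a siRNA against SIGLEC15 went with a lower level of DROSHA mRNA and a higher level of DICER1 mRNA. The mRNAs of the other 8 genes examined for microRNA processing and silencing did not pass the test. These 10 genes are DROSHA, DGCR8, XPO5, DICER1, TARBP2, AGO1, AGO2, AGO3, AGO4 and TNRC6A. They were taken by gene name from a list drawn up with earlier results of these data known, and all 10 were found among the 58825 genes of the deposited table and among the 18910 genes tested. Poly(A) RNA was sequenced from 3 libraries of cells given the SIGLEC15 siRNA (SI) and 3 libraries of cells given a negative control siRNA (NC). Both groups received 80 nmol/L siRNA with the same lipid reagent and were grown in medium with 10% serum, so the small RNA load and the transfection are common to both. The labels do not say whether the replicates were separate cultures, so the p-values measure a spread between libraries that may be technical. Messenger RNA was measured; mature microRNAs and proteins were not.

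A microRNA begins as a hairpin in a longer nuclear transcript. The Microprocessor, made of the RNase III enzyme DROSHA and its RNA-binding partner DGCR8, cuts the hairpin out, and exportin-5 (XPO5) carries it to the cytoplasm. There DICER1, a second RNase III enzyme that works with the double-stranded RNA-binding protein TARBP2, trims it to a short duplex. One strand of the duplex is loaded into an Argonaute protein, and GW182 proteins such as TNRC6A link the Argonaute to the enzymes that shorten and decap the target mRNA. A synthetic siRNA enters this pathway late, at Argonaute loading, and AGO2 is the human Argonaute known for efficient slicing of a target.

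Libraries held between 57966691 and 67655254 gene counts. SIGLEC15, the gene the siRNA was aimed at, had 12, 8 and 6 counts in the SI libraries and 12, 10 and 22 counts in the NC libraries. Its difference did not pass the test (log2 fold change SI over NC −0.82, SE 0.598, edgeR adjusted p = 0.529), so the knockdown was not detectable at this depth. Of 11 mesenchymal and osteoblast markers, 10 were in the table and 6 averaged at least 1 CPM (VIM, COL1A1, SPARC, RUNX2, CDH2 and S100A6). The osteoblast markers COL1A2, ALPL and BGLAP were under 1 CPM, and IBSP was at 0 in every library. The summed level of the list was 3648 to 3909 CPM in SI libraries and 3759 to 3912 CPM in NC libraries, most of it VIM, at 2692 ± 120 CPM in SI libraries and 2969 ± 88.2 CPM in NC libraries (SD, n = 3 each; edgeR adjusted p = 0.247). Within the list SPARC rose (604 CPM in SI libraries and 346 CPM in NC libraries, edgeR adjusted p = 0.00137), and so did COL1A1 (20.9 CPM in SI libraries and 12.9 CPM in NC libraries, edgeR adjusted p = 0.0134). RUNX2 had 3.60 to 20.1 CPM in SI libraries, against 2.65 to 3.59 CPM in NC libraries, and was not called (log2 fold change 2.00, edgeR adjusted p = 0.113). Of 6 epithelial markers EPCAM, KRT8, KRT18 and CLDN4 averaged at least 1 CPM and CDH1 was at 0, with a summed level of 927 to 1022 CPM in SI libraries and 890.3 to 1067 CPM in NC libraries. Of 6 leukocyte markers only CD68 did, with PTPRC, CD3E and LYZ at 0, and the list summed to 28.0 to 48.0 CPM in SI libraries and 41.9 to 56.4 CPM in NC libraries. None of 4 endothelial markers reached 1 CPM. The part of these markers in the results was not tested.

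Levels are given as CPM, each count divided by the library total after scaling by the trimmed mean of M values (TMM), and fold changes are SI over NC. A gene was called changed at a Benjamini-Hochberg adjusted p under 0.05 in edgeR's quasi-likelihood test over all tested genes. By this rule 2 of the 10 genes were called, 1 higher and 1 lower, against 4.65% of all tested genes (2.22% higher, 2.43% lower). At an unadjusted p under 0.05 there were 3 of the 10, against 19.1% of all. The CPM values of the groups did not overlap for 2 of the 10 genes, against 26.6% of all tested genes. The median log2 fold change was 0.06 for the 10 genes and −0.01 for all tested genes. The plot of levels by library shows the 2 called genes beside the 8 others.

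**Figure D1:**
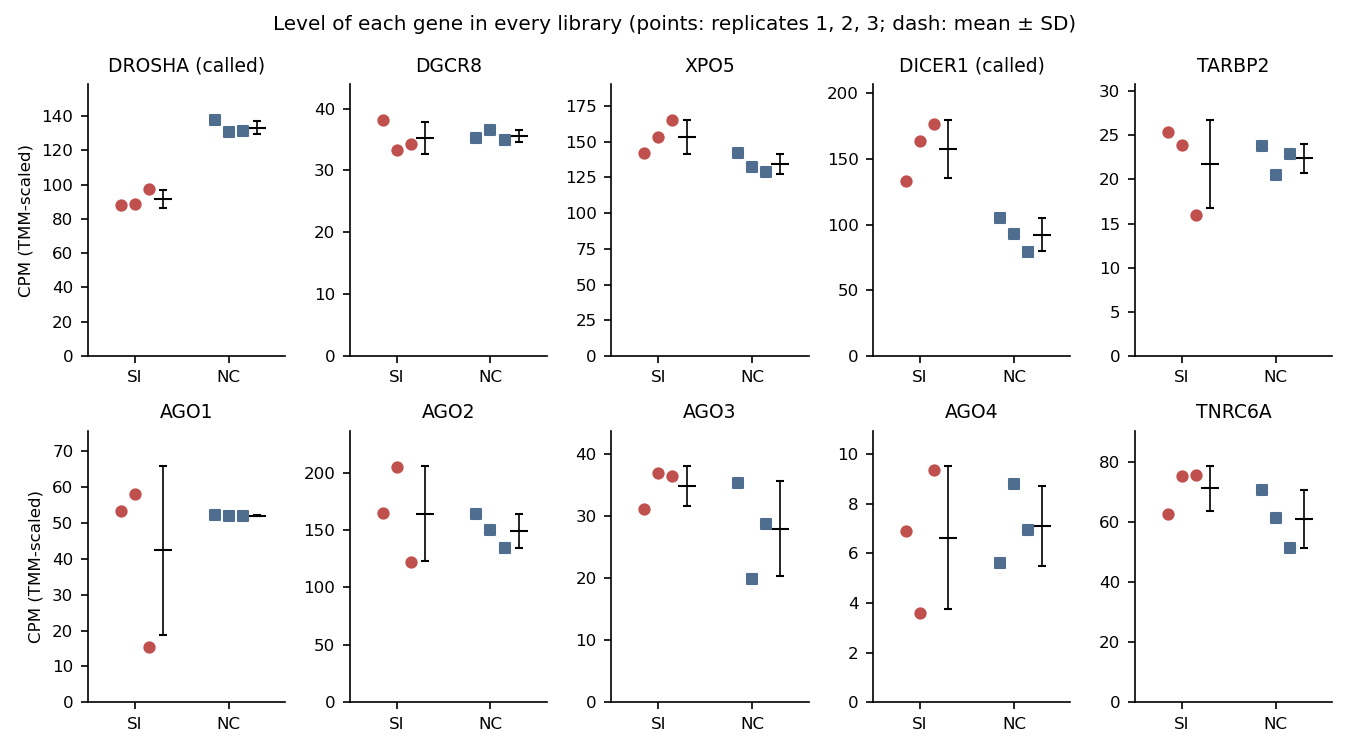
Level of each gene in CPM (vertical axes, each starting at 0) in the SIGLEC15 siRNA (SI) and negative control (NC) libraries; points are replicates 1 to 3 from left to right and the dash with bars is the mean ± SD (n = 3). DROSHA and DICER1 have groups that do not overlap, in opposite directions, and AGO1 has 1 SI library at 15.4 CPM against 51.7 CPM or more in the other 5.

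DROSHA (ENSG00000113360, chr5:31400497-31532196, minus strand) fell. Its level was 88.3, 88.9 and 97.7 CPM in SI libraries, against 138, 130.5 and 131 CPM in NC libraries. Every SI library lay below every NC library. In bulk RNA, fewer cells with the transcript and less transcript per cell cannot be told apart. The means were 91.6 ± 5.26 CPM in SI libraries and 133 ± 3.95 CPM in NC libraries (SD, n = 3 each), which made DROSHA 1.45-fold lower. The log2 fold change was −0.54 (SE 0.067, 95% interval −0.70 to −0.38, edgeR adjusted p = 0.00979). Without SI replicate 2 the edgeR adjusted p was 0.0545, while the log2 fold change stayed between −0.59 and −0.52 whichever library was left out.

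DGCR8 (ENSG00000128191, chr22:20080232-20111877, plus strand) recognises the hairpin and holds DROSHA on it. The Microprocessor is also known to cut hairpins within DGCR8 mRNA itself. DGCR8 had 38.2, 33.4 and 34.3 CPM in SI libraries, against 35.2, 36.6 and 34.9 CPM in NC libraries. The ranges overlapped, and the log2 fold change was −0.01 (SE 0.0855, 95% interval −0.22 to 0.19, edgeR adjusted p = 0.964). The interval leaves out a change as large as the one measured for DROSHA.

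XPO5 (ENSG00000124571, chr6:43522334-43576038, minus strand), the export receptor for the cut hairpins, had 142, 153 and 165 CPM in SI libraries, against 142, 132 and 129 CPM in NC libraries. The lowest SI library, at 141.8 CPM, lay just under the highest NC library, at 142.4 CPM. A log2 fold change of 0.19 (SE 0.0789) had an unadjusted edgeR p of 0.0468 and an edgeR adjusted p of 0.253, so XPO5 was not called. It shares 40086 bases with POLR1C, a gene on the opposite strand. Whether strand was used in counting is not given in the sources used here, so reads of the pair may not be told apart.

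DICER1 (ENSG00000100697, chr14:95086228-95158010, minus strand) rose. Its level was 133, 163 and 176 CPM in SI libraries, against 105, 92.9 and 79.4 CPM in NC libraries. The groups did not overlap, though the libraries within each spread more widely than those of DROSHA. The means were 158 ± 22.1 CPM in SI libraries and 92.4 ± 12.8 CPM in NC libraries (SD, n = 3 each), a 1.71-fold higher level. The log2 fold change was 0.77 (SE 0.139, 95% interval 0.44 to 1.10, edgeR adjusted p = 0.0309). The call rested on all but 1 of the libraries. It held without SI replicate 1 (edgeR adjusted p = 0.0377) and was lost without SI replicate 2 (0.115), SI replicate 3 (0.0883), NC replicate 1 (0.0546), NC replicate 2 (0.112) or NC replicate 3 (0.085), with a log2 fold change of 0.67 to 0.87 throughout.

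The balance of the pair of RNase III enzymes differed between the groups. The table also gives FPKM, which divides each count by a gene length and by the library total and so allows levels of different genes to be compared per length. The ratio of DICER1 to DROSHA FPKM was 0.956, 1.16 and 1.14 in SI libraries, against 0.482, 0.451 and 0.382 in NC libraries. It averaged 1.09 ± 0.115 in SI libraries and 0.439 ± 0.0511 in NC libraries (SD, n = 3 each). DICER1 was above DROSHA in SI replicates 2 and 3, just below it in SI replicate 1 and far below it in all 3 NC libraries. No test is given for the ratio, since both of its genes are tested above.

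DICER1 mRNA is itself known as a target of the let-7 microRNAs, so the matches to their seed in it are shown; the search was chosen after values were seen. The guide of the family is given with its seed, bases 2 to 8, in capitals. All 8 let-7 5p names in RefSeq (GRCh38.p14) share that seed, and the locus given for let-7a, 1 of 3, is chr9:94175962-94175983 on the plus strand.
hsa-let-7a-5p: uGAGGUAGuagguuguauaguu
The stretches of the DICER1 coding sequence (GENCODE 29, GRCh38, minus strand of the chromosome, written 5′ to 3′ along the mRNA, the only strand searched) have the match to that seed, CTACCTC, in capitals.
DICER1 match 1, chr14:95107889-95107895: actgtgttCTACCTCttaatgtt
DICER1 match 2, chr14:95103749-95103755: gcaaccaaCTACCTCatattcca
DICER1 match 3, chr14:95103641-95103647: taacaaatCTACCTCagatggaa
DICER1 match 4, chr14:95094107-95094113: attttggaCTACCTCataaccaa
The DICER1 coding sequence of 5769 bases held 4 matches, and 13 of 13567 tested genes with an annotated coding sequence and 3′ UTR (0.0958%) held 4 or more in the coding sequence. At least 1 match stood in 14.4% of coding sequences, whose median length was 1422 bases, so DICER1 is far longer than most; the part of length in its count was not tested, and the limit of 4 is its own count. The DICER1 3′ UTR held none in the 1 transcript searched per gene, the one with the longest coding sequence. A match is a stretch of letters and is not a measured site.

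TARBP2 (ENSG00000139546, chr12:53500921-53506431, plus strand), the partner of DICER1, had 25.3, 23.9 and 16.0 CPM in SI libraries, against 23.8, 20.5 and 22.9 CPM in NC libraries. SI replicate 3 was the lowest of the 6 libraries and the other SI libraries were the highest. The log2 fold change was −0.04 (SE 0.182, edgeR adjusted p = 0.937), and without SI replicate 3 it was 0.14.

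The 4 Argonautes carry the guide strand. None was called: in edgeR 0 of 4 passed, 0 had an unadjusted p under 0.05, and DESeq2, which called 17% of the genes it gave an adjusted p, called 0. AGO2 (ENSG00000123908, on chromosome 8), the slicing Argonaute, had 165, 205 and 122 CPM in SI libraries, against 164, 149.6 and 135 CPM in NC libraries. The SI libraries lay on both sides of the NC range, with a log2 fold change of 0.13 (SE 0.183, 95% interval −0.30 to 0.57, edgeR adjusted p = 0.767).

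AGO4, AGO1 and AGO3 lie in that order on the plus strand of chromosome 1, with 11917 bases between AGO4 and AGO1 and 185 bases between AGO1 and AGO3. AGO1 (ENSG00000092847, chr1:35869808-35930532) had 53.3, 58.1 and 15.4 CPM in SI libraries, against 52.1, 51.9 and 51.7 CPM in NC libraries. The NC libraries were nearly equal, at 51.9 ± 0.21 CPM (SD, n = 3), and SI replicate 3 stood alone at 1032 counts against 3066 or more in the others. That library was at 29.8% of the lowest of the other 5. The log2 fold change was −0.30 (SE 0.438, edgeR adjusted p = 0.785) with it and 0.10 (SE 0.0779, edgeR adjusted p = 0.583) without it. Such single drops were rare. Among 9895 genes averaging at least 10 CPM, 29 (0.293%) were in SI replicate 3 at less than 0.5 of the level in their lowest other library, and each of the 6 libraries held between 29 and 38 such genes. The neighbour AGO3 showed no such drop in that library.

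AGO3 (ENSG00000126070, chr1:35930718-36072500) had 31.1, 36.9 and 36.4 CPM in SI libraries, against 35.3, 20.0 and 28.8 CPM in NC libraries. The ranges overlapped because NC replicate 1 was as high as the SI libraries. Its log2 fold change was 0.31 (SE 0.205, edgeR adjusted p = 0.475). AGO4 (ENSG00000134698, chr1:35808016-35857890) was the weakest of the 10 genes, with 6.92, 3.62 and 9.35 CPM in SI libraries, against 5.60, 8.79 and 6.95 CPM in NC libraries. Its SI libraries held both the lowest and the highest value, and the 95% interval of the log2 fold change ran from −0.93 to 0.73. Its libraries differed within each group by more than the group means did.

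AGO2 made up most of the Argonaute mRNA in every library. Its share of the summed FPKM of the 4 Argonautes was 62.5%, 66.8% and 65.4% in SI libraries, against 62.6%, 61.7% and 58.6% in NC libraries, and the ranges overlapped. AGO1 held 23.1%, 21.6% and 9.38% in SI libraries, against 22.7%, 24.4% and 25.7% in NC libraries. AGO3 held between 8.83% and 14.6% in SI libraries and between 6.16% and 10.1% in NC libraries. AGO4 held between 2.50% and 10.7% in SI libraries and between 4.56% and 7.72% in NC libraries. The order AGO2, AGO1, AGO3, AGO4 held in 4 of the 6 libraries. In SI replicate 3 both AGO3 and AGO4 stood above AGO1, and in NC replicate 2 AGO4 stood above AGO3. With CPM in place of FPKM the places of AGO4 turned, to 5.10% against 8.39% for AGO1 in SI replicate 3 and 3.81% against 8.67% for AGO3 in NC replicate 2.

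**Figure D2:**
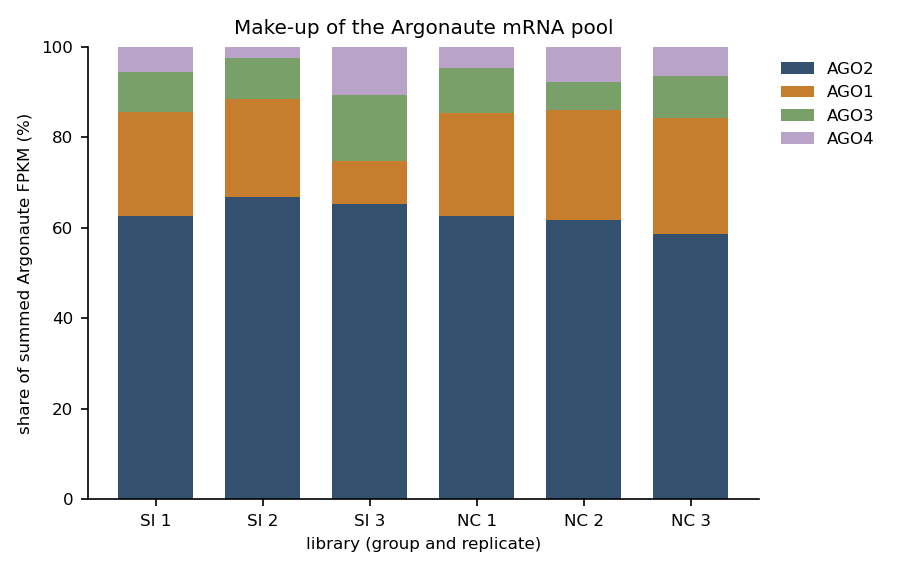
Share of each Argonaute in the summed FPKM of AGO1 to AGO4 (vertical axis, percent) in each SIGLEC15 siRNA (SI) and negative control (NC) library. AGO2 holds 58.6% to 66.8% in every library, and the AGO1 share is 9.38% in SI replicate 3.

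TNRC6A (ENSG00000090905, chr16:24610209-24826218, plus strand), the GW182 protein that recruits the deadenylases, had 62.6, 75.1 and 75.6 CPM in SI libraries, against 70.4, 61.2 and 51.3 CPM in NC libraries. The lowest SI library lay inside the NC range, with a log2 fold change of 0.22 (SE 0.135, 95% interval −0.10 to 0.54, edgeR adjusted p = 0.443).

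**Figure D3:**
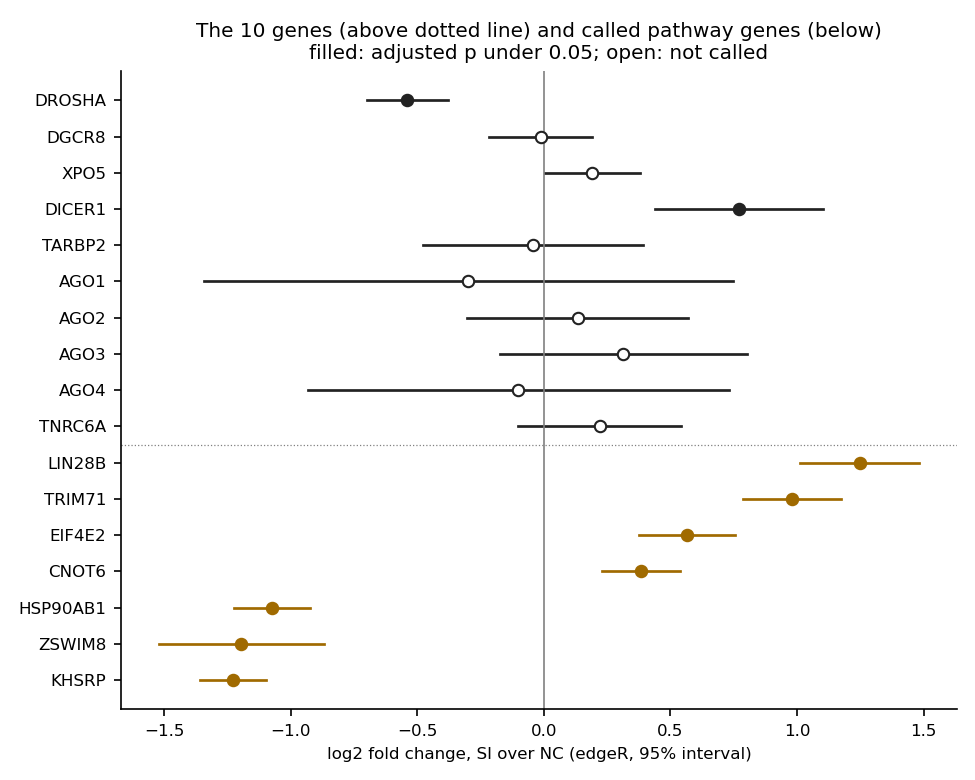
Log2 fold change of each gene, SIGLEC15 siRNA over negative control (horizontal axis), with its 95% interval from edgeR (n = 3 libraries each); the 10 genes are above the dotted line, the 7 called genes of the pathway lists described next are below it, and filled points are called. The intervals of DROSHA (−0.70 to −0.38) and DICER1 (0.44 to 1.10) lie on opposite sides of 0, and AGO1 has the widest interval.

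Ordered by mean FPKM, XPO5 was highest in SI cells at 15.2 ± 1.24 (SD, n = 3). DICER1 (10.8), DROSHA (9.88) and AGO2 (8.72) followed, then TNRC6A (4.60), TARBP2 (4.44) and DGCR8 (4.04), and AGO1 (2.56), AGO3 (1.38) and AGO4 (0.745) were lowest. The libraries of neighbours in that order did not overlap between XPO5 and DICER1, AGO2 and TNRC6A, DGCR8 and AGO1, and AGO3 and AGO4. In NC cells DROSHA came first at 14.4 ± 0.546 FPKM (SD, n = 3) with a range that overlapped that of XPO5 (13.3). AGO2 (7.92) and DICER1 (6.31) came next, then TARBP2 (4.57), DGCR8 (4.08), TNRC6A (3.94), AGO1 (3.14), AGO3 (1.11) and AGO4 (0.802). Neighbours were apart there between XPO5 and AGO2, DICER1 and TARBP2, TNRC6A and AGO1, and AGO1 and AGO3. The lengths behind these FPKM values, worked back from the counts, ran from 4893 bases for TARBP2 to 25200 bases for AGO3. A gene counted over a long model reads lower per length than one counted over a single transcript.

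Beyond the 10 genes, 95 genes of the pathway were listed in 6 groups by role, and 93 were tested. Of these 7 were called (7.53%), 4 higher and 3 lower, and 26 of 93 had groups that did not overlap. Over all tested genes 4.65% were called and 26.6% had groups that did not overlap. DESeq2 called 18 of the 93, and 17% of all genes it gave an adjusted p. The lists were drawn up with earlier results of these data known. The plot of the 6 groups shows most of the fold changes near 0 with a few genes far out on either side.

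**Figure D4:**
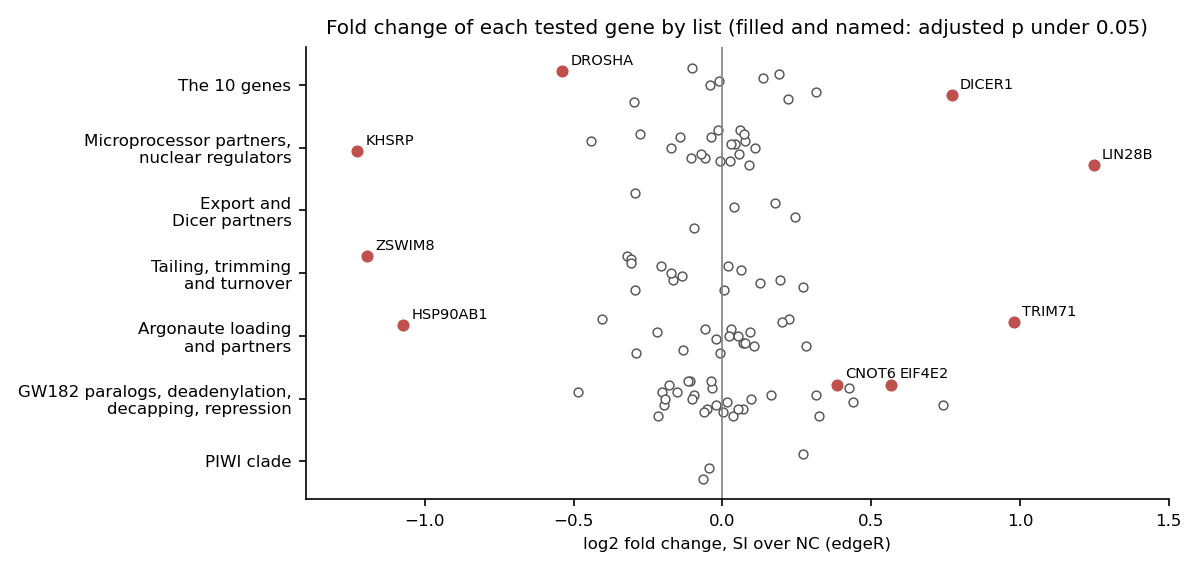
Log2 fold change, SIGLEC15 siRNA over negative control (horizontal axis, edgeR), of each tested gene among the 10 genes (top row) and in the 6 pathway lists; filled, named points are called genes. KHSRP, ZSWIM8 and HSP90AB1 lie below −1, and LIN28B is the highest at 1.25.

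Among 21 tested Microprocessor partners and nuclear regulators, 1 rose and 1 fell (median log2 fold change −0.01). KHSRP, an RNA-binding protein that helps DROSHA and DICER1 process a subset of precursors, let-7 among them, had 110.4, 114 and 114 CPM in SI libraries, against 257, 263 and 271 CPM in NC libraries. It was 2.34-fold lower (log2 fold change −1.23, SE 0.0551, edgeR adjusted p = 0.000636). LIN28B, which binds let-7 precursors and blocks their processing, had 77.2, 81.1 and 86.4 CPM in SI libraries, against 36.1, 36.7 and 30.3 CPM in NC libraries. It was 2.37-fold higher (log2 fold change 1.25, SE 0.0985, edgeR adjusted p = 0.00238). Its paralog LIN28A had 0 counts in every library.

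The list of Argonaute loading and partner genes held 19 tested genes, of which 1 rose and 1 fell (median 0.03). TRIM71, a ubiquitin ligase and RNA-binding repressor known as a let-7 target, had 40.0, 43.3 and 41.9 CPM in SI libraries, against 21.0, 22.0 and 20.5 CPM in NC libraries. It was 1.97-fold higher (log2 fold change 0.98, SE 0.0815, edgeR adjusted p = 0.00314). HSP90AB1, a chaperone of the HSP90 class that opens Argonaute for loading, had 1340, 1266 and 1377 CPM in SI libraries, against 2860, 2637 and 2886 CPM in NC libraries, with a log2 fold change of −1.07 (edgeR adjusted p = 0.00131). HSP90AB1 has many near-identical pseudogene copies, so its counts are uncertain to the extent that reads were split among them. HSP90AA1, of the same class and list, was more abundant, at 3849 CPM in SI libraries and 4216 CPM in NC libraries. It was not called (log2 fold change −0.13, edgeR adjusted p = 0.328).

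Of 15 tested genes for tailing, trimming and turnover of small RNAs, 0 rose and 1 fell (median −0.16). ZSWIM8, part of a ubiquitin ligase that removes Argonaute when a target RNA directs decay of its microRNA, had 10.9, 13.1 and 11.8 CPM in SI libraries, against 31.2, 27.1 and 23.6 CPM in NC libraries. Its log2 fold change was −1.20 (SE 0.137, edgeR adjusted p = 0.00766). Genes on the opposite strand overlap ZSWIM8. AC022400 shares 5280 bases and had 153, 57 and 40 counts in SI libraries, against 145, 63 and 276 counts in NC libraries (log2 fold change −1.03, edgeR adjusted p = 0.462). ZSWIM8-AS1 shares 4886 bases and had 0, 91 and 76 counts in SI libraries, against 42, 83 and 38 counts in NC libraries (log2 fold change −0.016, edgeR adjusted p = 0.997). Without strand, reads of ZSWIM8 and these genes may not be told apart.

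Of 30 tested genes for GW182 paralogs, deadenylation, decapping and repression, 2 rose and 0 fell (median −0.03). EIF4E2, a cap-binding protein that represses translation, had 203, 194 and 180.2 CPM in SI libraries, against 124, 125 and 141 CPM in NC libraries. Its log2 fold change was 0.57 (SE 0.0796, edgeR adjusted p = 0.0143), and the call was lost without SI replicate 1 (edgeR adjusted p = 0.0521), SI replicate 2 (0.0666), NC replicate 1 (0.0574) or NC replicate 2 (0.0705). CNOT6, a deadenylase subunit of the CCR4-NOT complex, had 77.6, 80.2 and 80.6 CPM in SI libraries, against 63.6, 59.0 and 60.1 CPM in NC libraries. Its log2 fold change was 0.38 (SE 0.064, edgeR adjusted p = 0.0241), and without any 1 of the 6 libraries the edgeR adjusted p was between 0.0568 and 0.108.

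Export and Dicer partners had 0 of 5 tested genes called by edgeR, with 1 at an unadjusted p under 0.05 and 1 called by DESeq2. PRKRA, a double-stranded RNA-binding partner of DICER1, had 58.9, 54.0 and 58.0 CPM in SI libraries, against 46.3, 48.5 and 49.6 CPM in NC libraries. Its groups did not overlap, and its adjusted p was 0.125 with edgeR and 0.0051 with DESeq2. RAN, the GTPase that XPO5 needs to carry its cargo, had 919, 914 and 960.0 CPM in SI libraries, against 1243, 868 and 1313 CPM in NC libraries. NC replicate 2 stood below all SI libraries, and the log2 fold change was −0.29 with it (edgeR adjusted p = 0.354) and −0.46 without it (edgeR adjusted p = 0.0449). The PIWI clade, known from the germline, had 3 of 4 genes tested, and edgeR called 0, with 0 at an unadjusted p under 0.05 and 0 called by DESeq2. PIWIL2 had 1.09, 2.04 and 1.09 CPM in SI libraries, against 1.21, 1.20 and 1.08 CPM in NC libraries (log2 fold change 0.27, edgeR adjusted p = 0.709). For PIWIL1 the log2 fold change was −0.07 (edgeR adjusted p = 0.962), and PIWIL3 had 0 counts.

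LIN28B and TRIM71 are known let-7 targets too, and their 3′ UTRs (GENCODE 29, GRCh38, plus strand) held the same seed match, in capitals here; both were chosen after their values were seen, and 2 of the TRIM71 matches are given.
LIN28B match, chr6:105078827-105078833: tgcaaagtCTACCTCatgcaagt
TRIM71 match 1, chr3:32891983-32891989: cttaagtcCTACCTCatctttat
TRIM71 match 2, chr3:32892063-32892069: atttctatCTACCTCataaatct
The TRIM71 3′ UTR held 6 matches, and it was the only 1 of the 13567 genes with 6 or more there. The limit of 6 is its own count, set after the gene was picked. Its 3′ UTR had 6015 bases, against a median of 1004, and the part of length in its count was not tested. The LIN28B 3′ UTR, of 1696 bases in the transcript searched, held 1, and 9.59% of all 3′ UTRs held at least 1. Only 1 transcript per gene was searched, the one with the longest coding sequence and then the longest 3′ UTR. Matches in other transcripts are not counted. Among genes called higher 14.7% of 3′ UTRs held a match, and among genes called lower 9.95% did. The same 3′ UTRs were also searched for another motif, AGGCTCA, with a larger imbalance. How AGGCTCA was chosen is not recorded, so its shares are not a separate check. The motif stood in 8.23% of 3′ UTRs of genes called higher, 26.1% of genes called lower and 10.1% of all. Median 3′ UTR lengths were 1574 bases for genes called higher, 1281.5 for genes called lower and 1004 for all. The part of length in these shares was not tested, nor was a part of either motif in the calls. Of the 10 genes, AGO1 held AGGCTCA 2 times and AGO4 held it 1 time in the 3′ UTR. The rest of the 10 and the called pathway genes did not hold it there. For the let-7 seed, AGO2 held 2 matches in its 3′ UTR, and TARBP2, AGO1 and AGO3 held 1 each. DROSHA, DGCR8, XPO5, DICER1, AGO4 and TNRC6A held no let-7 seed match in theirs. In the coding sequence DICER1 held 4 let-7 seed matches, XPO5 and AGO3 held 1 each and the rest of the 10 none. LIN28B and TRIM71 held 1 each there too. Of the other called pathway genes, EIF4E2, called higher, held 1 in the coding sequence and none in its 3′ UTR. CNOT6, called higher, and KHSRP, ZSWIM8 and HSP90AB1, called lower, held none in either. Coding sequences with a let-7 seed match were 20.4% of genes called higher, 11.6% of genes called lower and 14.4% of all. Their median lengths were 1650, 1320 and 1422 bases in that order, and the part of length was not tested. The 11 rows of the table for let-7 precursor genes reached at most 2 counts in a library, and mature let-7 was not measured.

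DROSHA had the smallest p of the 10 genes, and the 3 tested genes whose log2 CPM followed it most closely over the 6 libraries were BRD7 (Pearson r 0.9995), CUL4A (0.999) and PRKD1 (0.999). With the group means removed the correlations were 0.989, 0.982 and 0.988 in the same order. These come from the 6 libraries by which the genes were picked, so they are not a separate check. The libraries fall into 2 groups, so the pooled r also carries the difference between them, and 401 of 15614 ranked genes had an r over 0.95. BRD7 averaged 103 CPM in SI libraries and 155 CPM in NC libraries (log2 fold change −0.59, edgeR adjusted p = 0.00856). CUL4A averaged 102 CPM in SI libraries and 132 CPM in NC libraries (log2 fold change −0.38, edgeR adjusted p = 0.0202), and PRKD1, at 20.2 CPM in SI libraries and 25.2 CPM in NC libraries, was not called (edgeR adjusted p = 0.0938).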

How the data were processed

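The authors deposited whole-number counts per gene and library, per the file headers, with FPKM values beside them. HISAT, StringTie and edgeR are named in the submitters' processing notes. The counting method, strand use and genome build were not given in the sources. Counts divided by FPKM and by the library total gave each of the 10 genes a length that differed between libraries by at most 1.04%, so FPKM is not an independent measure. In R 4.3.3, edgeR 4.0.16 kept genes by filterByExpr (at least 10 counts, total at least 15), scaled libraries by TMM and compared SI with NC over all 6 libraries by quasi-likelihood, with no covariate. SE is the absolute log2 fold change over the root of the F statistic. Libraries held 57966691 to 67655254 counts, and 0 count columns lacked a sample. All 10 genes overlap GENCODE 29 on the same strand, 5 with the same start and end; coordinates are those of the table.

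The members and lists were chosen with earlier results of these data known. Named genes are the 10 members, SIGLEC15, KHSRP, every called gene of a pathway list or the 2 with the smallest p where none was called, and the 3 genes most like the member with the smallest p. Other genes named (LIN28A, PIWIL3, HSP90AA1, POLR1C, AC022400 and ZSWIM8-AS1) were chosen after their values were seen. Alternatives were median-of-ratios size factors, no filter, a mean FPKM of at least 5, DESeq2 1.42.0 on the same genes, limma-trend (limma 3.58.1) on FPKM with pseudocounts of 1 and 0.1 before log2, the replicate number as a block, and each library left out. The limma fits used genes averaging 1 FPKM or more. The edgeR step was tested on simulated data. The value of 1 marker gene is not reported here.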

Additional observations from a re-analysis of the deposited data

How the results depend on the processing

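edgeR called 879 genes (419 higher, 460 lower) over all tested genes. DESeq2 called 2904 of 17043 with an adjusted p, which is 17% (1483 higher, 1421 lower). Leaving out 1 library gave 260 to 431 (108 to 189 higher, 151 to 242 lower). Among the 10 genes, 2 were called, and 0 to 2 with 1 library left out; the 0 came without SI replicate 2, where edgeR had 2 at an unadjusted p under 0.05 and DESeq2 on all libraries called 2. Of the 93 pathway genes, 7 were called, 5 to 7 with 1 library left out and 18 with DESeq2. Same-numbered libraries did not deviate together when all tested genes were taken at once (correlations −0.0489, 0.0111 and −0.0626). This cannot show whether a shared culture or batch acted on some of the genes. With the number as a replicate block edgeR called 50 genes (15 higher, 35 lower), 2 pathway genes and 0 of the 10 genes, of which 2 had an unadjusted p under 0.05 (DROSHA adjusted p = 0.0965, DICER1 adjusted p = 0.162, both edgeR). The block takes 2 of the 4 residual degrees of freedom.

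DROSHA was called in 11 of 13 alternatives and DICER1 in 7 of 13, and KHSRP and HSP90AB1 in all 13. Log2 fold changes that changed sign did so only where 1 library was left out: DGCR8 ranged from −0.076 to 0.028, TARBP2 from −0.17 to 0.14, AGO1 from −0.60 to 0.10, AGO2 from −0.056 to 0.31, AGO4 from −0.43 to 0.19, PIWIL2 from −0.10 to 0.42 and PIWIL1 from −0.37 to 0.20. With CPM in place of FPKM, the mean AGO3 share of Argonaute mRNA was 14.7% in SI libraries and 11.8% in NC libraries (10.8% and 8.54% by FPKM, in the same order), and the AGO4 share was 3.00% in SI libraries and 3.04% in NC libraries (6.25% and 6.23% by FPKM). By CPM, AGO4 was below AGO1 in SI replicate 3 and below AGO3 in NC replicate 2, which is the other way round by FPKM. SIGLEC15, at 6 to 22 counts in a library, is limited by counting depth, and 3 libraries a group limit every comparison.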

Other observations

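Some decay genes of the pathway lists varied between libraries of 1 group by more than between the groups. DCP2, the catalytic subunit of the decapping complex, had 52.7, 54.1 and 147 CPM in SI libraries, against 67.1, 16.0 and 68.8 CPM in NC libraries. PAN3, a subunit of the deadenylase that starts tail shortening, had 25.5, 15.6 and 31.1 CPM in SI libraries, against 30.1, 14.2 and 13.7 CPM in NC libraries. Both genes were chosen after their values were seen, and neither was called.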
